A study of Mus musculus with 10 samples.

Results

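Sterol and fatty acid synthesis genes were described in the lungs of mouse pups with increased pulmonary blood flow (IncPBF). The set held 32 genes of the 54532 in the deposited table, chosen by gene symbol: 18 enzymes of sterol synthesis, 10 enzymes of fatty acid synthesis, elongation and desaturation, and 4 regulators and carriers of sterol. All 32 symbols were in the table. The study created a fistula between the abdominal aorta and the inferior vena cava of wild-type mouse pups at P7 under isoflurane, which sends arterial blood into the vein and from there through the lung, and collected lungs at P14, a stage of active alveolar formation. The IncPBF group was 5 lungs with a fistula and the sham group was 5 lungs with the laparotomy and no puncture, so both groups carried the anesthesia and the abdominal surgery. Pups of either sex were operated on, and neither sex nor litter nor surgery date is labelled for any lung. Bulk RNA-sequencing gave 1 value per gene and lung as FPKM (fragments per kilobase of gene, scaled to sequencing depth), a unit that can be compared between genes because it is scaled to length. Each lung is called by the number of its column in the table. Nothing in the labels says that lungs came from separate litters, so the tests measured the spread between these lungs.

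Cells make cholesterol from acetyl-CoA along a long route. Its first stage builds isoprenoid units by way of mevalonate, the next joins them into squalene, and the last closes the rings to lanosterol and trims lanosterol to cholesterol. Fatty acids are made from the same acetyl-CoA by carboxylation, chain building, elongation and desaturation. Both routes are controlled by the SREBP transcription factors. While sterol is plentiful, INSIG proteins hold these factors in the endoplasmic reticulum together with their escort protein SCAP. SREBP-2 (Srebf2) acts mainly on sterol genes and the SREBP-1c form of Srebf1 mainly on fatty acid genes. The liver X receptors LXR work in the other direction: oxidised sterols switch them on, and they raise sterol export genes together with Srebf1 and fatty acid genes. In the lung, AT2 cells use fatty acids and cholesterol for surfactant, and lipofibroblasts store neutral lipid beside them.

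Promoters of 25 of the 32 genes were in the RefSeq table used here (GRCm38.p6, 250 bases before and 50 after the start site). Entries for Fdps, Fdft1, Sqle, Scd1, Scd2, Fads1 and Stard4 were not used here. These windows were searched on both strands for 3 letter patterns: the sterol regulatory element read as TCACNCCA, with the longer form TCACNCCAC counted on its own, the NF-Y box CCAAT, and the E-box CACGTG. TCACNCCA stood in 3 of 25 members (12.0%) and in 4.97% of all 27025 genes with a promoter, and the longer form in 1 member (4.0%) and 1.44% of all genes. CCAAT stood in 21 of 25 members (84.0%) against 41.1% of all genes, and CACGTG in 5 (20.0%) against 8.09%. Only these exact letters were counted, so a window without TCACNCCA may still hold another form of the sterol regulatory element. The 3 members with TCACNCCA are printed because this pattern is the one named for sterol control. Hsd17b7 and Fasn are added as a gene that rose and a gene that fell without these letters. The 250 bases before each start site run 5′ to 3′ on the strand of the gene, and capitals mark every match, with a CCAAT on the opposite strand read as ATTGG.
Hmgcs1, chr13:119690101-119690350, plus strand: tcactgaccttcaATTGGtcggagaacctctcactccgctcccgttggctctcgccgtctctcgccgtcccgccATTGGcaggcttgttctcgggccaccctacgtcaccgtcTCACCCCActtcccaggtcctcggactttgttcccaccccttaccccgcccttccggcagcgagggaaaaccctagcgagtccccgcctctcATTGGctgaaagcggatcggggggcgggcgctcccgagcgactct
Msmo1, chr8:64733579-64733828, minus strand: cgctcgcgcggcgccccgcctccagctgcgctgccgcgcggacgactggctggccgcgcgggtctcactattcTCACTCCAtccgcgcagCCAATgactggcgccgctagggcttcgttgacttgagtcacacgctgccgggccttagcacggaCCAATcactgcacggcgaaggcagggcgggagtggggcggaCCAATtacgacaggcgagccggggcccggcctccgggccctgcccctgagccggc
Srebf2, chr15:82147019-82147268, plus strand: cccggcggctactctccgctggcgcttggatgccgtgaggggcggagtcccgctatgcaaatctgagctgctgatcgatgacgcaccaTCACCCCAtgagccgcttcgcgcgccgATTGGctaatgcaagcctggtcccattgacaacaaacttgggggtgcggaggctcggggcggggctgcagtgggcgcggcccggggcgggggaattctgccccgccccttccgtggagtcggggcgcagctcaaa
Hsd17b7, chr1:169969206-169969455, minus strand: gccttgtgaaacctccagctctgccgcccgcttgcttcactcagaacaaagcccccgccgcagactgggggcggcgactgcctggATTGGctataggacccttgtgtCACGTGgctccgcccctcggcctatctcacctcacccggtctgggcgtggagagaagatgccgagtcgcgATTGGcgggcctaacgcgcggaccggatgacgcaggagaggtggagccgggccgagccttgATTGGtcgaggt
Fasn, chr11:120824548-120824797, minus strand: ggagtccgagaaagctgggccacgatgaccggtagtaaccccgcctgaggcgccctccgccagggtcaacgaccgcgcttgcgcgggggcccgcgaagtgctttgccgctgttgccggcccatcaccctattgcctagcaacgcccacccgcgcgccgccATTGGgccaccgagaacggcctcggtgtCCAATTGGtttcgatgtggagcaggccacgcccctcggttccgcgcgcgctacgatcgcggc
In Hmgcs1 the match was the longer form TCACCCCAC, with its first base at -137 from the start site. The Msmo1 match was TCACTCCA and the Srebf2 match TCACCCCA. In Fasn a CCAAT and an ATTGG overlapped by 2 bases. CCAAT was in 9 of the 10 windowed members that rose in the comparison below, in all 3 windowed members that fell and in 9 of 12 that did not pass the test, so its presence did not separate these classes.

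Fragments on genes numbered between 16103423 and 20318525 with IncPBF and between 18171494 and 19400575 with sham. Xist, the RNA of the inactive X chromosome of females, was at 52.4 to 66.5 FPKM in IncPBF lungs 2 to 5 and at 0.077 or less in IncPBF lung 1 and all 5 sham lungs, while the Y-linked Ddx3y showed the opposite pattern. Sex and surgery could therefore be set apart only by way of IncPBF lung 1. The heart muscle gene Myl7 stood at 10.6 and 11.8 FPKM in IncPBF lungs 2 and 4 and at 2.07 or less in the others. The secretoglobin Scgb1a1 of airway club cells was at 128 FPKM in sham lung 5 and at 4802 or more in the other lungs. The counts of called members and of called other pathway genes were also taken without IncPBF lungs 2 and 4.

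Genes were tested on log2(FPKM + 0.1) by limma across the 15388 genes whose FPKM averaged 0.5 or more, with a Benjamini-Hochberg adjusted p of 0.05 as the threshold, and fold changes are differences on that log2 scale, IncPBF against sham. Of the 32 members 31 were tested. In IncPBF 13 were upregulated and 4 were downregulated, and 14 did not pass the threshold. Of all genes tested 32.3% passed, 16.1% upregulated and 16.2% downregulated, so the share of upregulated members (41.9%) was above that of all genes and the share of downregulated members (12.9%) was below it. Of the 31 tested members 13, the upregulated ones, had every IncPBF lung above every sham lung, beside 12.0% of all genes tested. Elovl5 and Ebp, 2 of the 31, had every IncPBF lung below every sham lung, beside 11.2%. Among all genes tested 2480 were called upregulated and 1845 had the upward separation. The 13 members were called on these same lungs, so their separation is no further support for the calls. IncPBF lung 1, with the Xist level of the sham group, was thus also above all sham lungs for each of the 13. Within the IncPBF group, however, this lung was the lowest in 9 of the 17 tested sterol enzymes. The FPKM are not scaled to the total on genes: with an equal total of fragments per lung 3559 genes were called upregulated and 1782 downregulated, in place of 2480 and 2490, and 18 members upregulated and 3 downregulated, with all 13 still among them. With log2 Xist as a covariate 741 genes were called in place of 4970. Mvd, Cyp51, Hsd17b7 and Dhcr7 were the upregulated members that then still passed. All 13 had a positive fold change and 12 had an unadjusted limma p under 0.05. The 13 were selected on these same lungs and no share of all genes is given for either count, so neither is separate support. Without IncPBF lungs 2 and 4 all 13 upregulated members passed and 1 downregulated member, Elovl5.

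The sterol enzymes held most of the upregulated members. Of 18 enzymes 17 were tested, 10 were upregulated, 1 (Ebp) was downregulated and 6 did not pass. Their median log2 fold change was 0.52, beside 0.01 over all genes tested, where the middle 50% of genes lay between -0.19 and 0.22. It was 0.25 without Acat2, Hmgcs1, Idi1 and Fdft1, which share at least 10% of their 50-base transcript stretches with other genes. The upregulated enzymes were spread over all stages of the route, with Acat2, Hmgcs1, Mvd and Idi1 in the mevalonate stage, Fdft1 and Sqle in the squalene stage, and Cyp51, Msmo1, Hsd17b7 and Dhcr7 after lanosterol.

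**Figure D1:**
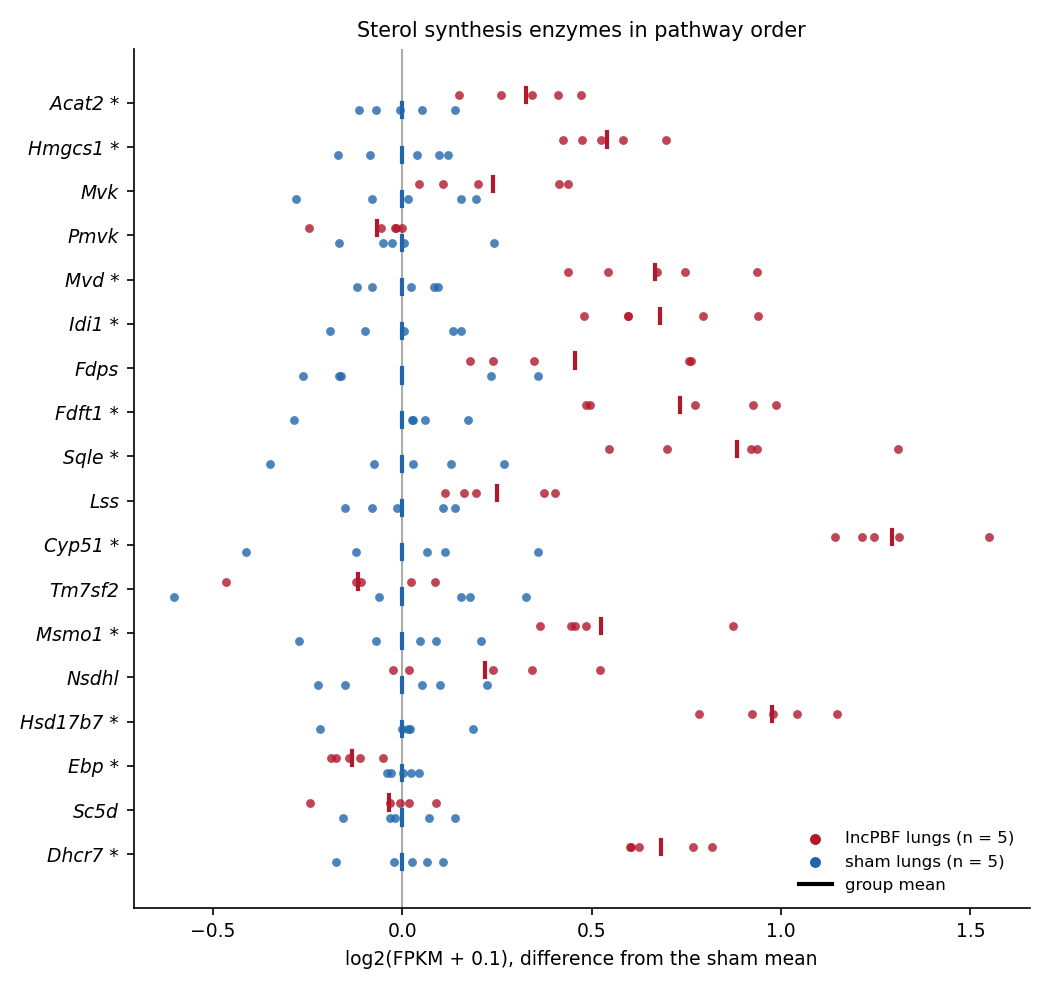
Each row is a sterol enzyme in pathway order, each point a lung (red IncPBF, blue sham, 5 each), and the horizontal axis is log2(FPKM + 0.1) minus the sham mean of that gene. Ticks are group means and asterisks mark an adjusted limma p under 0.05. The red points lie to the right of all blue points for 10 enzymes, furthest for Cyp51 at a log2 fold change of 1.29.

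Acat2 (chr17:12942890-12960747), a thiolase that joins 2 acetyl-CoA, was at 11.3, 8.998, 10.3, 10.8 and 9.71 FPKM in IncPBF lungs 1 to 5 and 7.71, 8.39, 8.06, 8.92 and 7.47 in sham lungs 1 to 5. This was the smallest rise among the upregulated sterol enzymes, with log2 fold change 0.33 ± 0.072 (SE), adjusted p = 0.00568, and the lowest IncPBF lung lay just above the highest sham lung. Of its longest coding transcript 45.9% of 50-base stretches also occur in transcripts of Acat3 or Tcp1, so fragments could be split between them. Hmgcs1 (chr13:119690379-119708260), the synthase that adds the next acetyl group to give HMG-CoA and the member whose promoter holds the longer sterol pattern, stood at 22.2, 24.7, 23.0, 26.8 and 23.8 FPKM with IncPBF against 17.7, 15.5, 16.95, 17.9 and 14.7 in sham, log2 fold change 0.54 ± 0.071, adjusted p = 2.85e-04. It was the most abundant sterol enzyme in both groups.

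The mevalonate kinases had smaller fold changes. Mvk, which phosphorylates mevalonate, ranged from 7.92 to 10.4 FPKM in IncPBF and 6.31 to 8.80 in sham, with log2 fold change 0.24 ± 0.11, adjusted p = 0.107, and Pmvk, the next kinase, from 8.88 to 10.6 and 9.39 to 12.5, with log2 fold change -0.07 ± 0.078, adjusted p = 0.545. With an equal total of fragments per lung Mvk passed as upregulated (limma adjusted p = 0.0465). In the main test neither kinase passed. Mvd (chr8:122433601-122443422), the decarboxylase that follows them and yields the isoprenoid unit, did: its lungs were at 7.82, 7.15, 8.24, 9.41 and 6.63 FPKM with IncPBF and 4.95, 5.17, 5.20, 4.47 and 4.603 with sham, log2 fold change 0.67 ± 0.091, adjusted p = 3.56e-04. Idi1 (chr13:8885501-8892451), which interconverts the 2 isoprenoid units, was at 4.69, 5.404, 4.32, 5.99 and 4.70 FPKM in IncPBF and 2.86, 2.68, 3.38, 3.43 and 3.08 in sham, log2 fold change 0.68 ± 0.10, adjusted p = 6.08e-04. Mvd and Idi1 thus rose by similar amounts, and the sham lungs were closer together than the IncPBF lungs in both.

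Fdps, which links isoprenoid units into farnesyl diphosphate, was under the expression filter at 0.252 to 0.427 FPKM in IncPBF and 0.159 to 0.298 in sham and was not tested. Of its 50-base transcript stretches 86.4% occur in other genes, so its level in the table is uncertain. Fdft1 (chr14:63145150-63179578), the squalene synthase, was at 6.23, 7.57, 8.44, 8.80 and 6.19 FPKM in IncPBF lungs and 3.59, 4.47, 4.96, 4.58 and 4.48 in sham lungs, log2 fold change 0.73 ± 0.12, adjusted p = 9.84e-04. Sqle (chr15:59315077-59331192), the squalene epoxidase and a rate-limiting step of the route, was at 4.91, 6.39, 6.46, 8.40 and 5.47 FPKM against 3.65, 3.16, 4.03, 3.40 and 2.59, log2 fold change 0.88 ± 0.15, adjusted p = 0.00122. IncPBF lung 4 stood highest for both genes, and all lungs of the 2 groups were apart. Fdft1 shares 30.7% of its 50-base stretches with other genes and Sqle none. Lss, which closes the rings to lanosterol, ranged from 1.62 to 2.00 FPKM with IncPBF and 1.33 to 1.65 with sham, log2 fold change 0.25 ± 0.10, adjusted p = 0.0801, and did not pass.

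Cyp51 (chr5:4081145-4104746), the lanosterol demethylase, had the largest fold change of the 31 tested members. Its FPKM was 8.38, 8.81, 9.43, 11.1 and 9.01 in IncPBF lungs and 3.43, 4.05, 3.92, 4.82 and 2.78 in sham lungs, log2 fold change 1.29 ± 0.13, adjusted p = 5.93e-05, a 2.45-fold difference. Even the lowest IncPBF lung was above the highest sham lung by a wide margin, 8.38 against 4.82 FPKM. Hsd17b7 (chr1:169949535-169969241), a ketosteroid reductase of the demethylation of sterols, came next with 4.02, 4.62, 4.44, 5.20 and 4.83 FPKM in IncPBF against 2.29, 2.32, 1.96, 2.33 and 2.62 in sham, log2 fold change 0.98 ± 0.091, adjusted p = 3.44e-05. Cyp51 and Hsd17b7 kept their call with every alternative setting and every lung left out. Dhcr7 (chr7:143823145-143848410), which makes cholesterol from its dehydro precursor, did so too, with 3.27, 3.27, 3.68, 3.82 and 3.33 FPKM in IncPBF and 1.87, 2.23, 2.29, 2.09 and 2.16 in sham, log2 fold change 0.68 ± 0.079, adjusted p = 1.26e-04.

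Msmo1 (chr8:64718139-64733792), the methylsterol oxidase, was at 4.11, 4.39, 4.48, 5.90 and 4.36 FPKM in IncPBF and 3.02, 3.38, 3.28, 3.68 and 2.61 in sham, log2 fold change 0.52 ± 0.11, adjusted p = 0.00508. IncPBF lung 4 stood apart from the other 4 IncPBF lungs, which were close together. The remaining enzymes after lanosterol had smaller fold changes. Nsdhl, which works with Msmo1 on the same methyl groups and is X-linked, ranged from 4.51 to 6.64 FPKM in IncPBF and 3.93 to 5.38 in sham, log2 fold change 0.22 ± 0.12, adjusted p = 0.185. Tm7sf2, a sterol reductase with the lowest level of the tested members, had log2 fold change -0.12 ± 0.19, adjusted p = 0.665, and Sc5d, the desaturase just before Dhcr7, had log2 fold change -0.03 ± 0.074, adjusted p = 0.752. None of these 3 passed.

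Ebp (chrX:8185329-8193512), the sterol isomerase, was the downregulated sterol enzyme. Its lungs were at 10.4, 10.7, 11.4, 10.3 and 10.9 FPKM in IncPBF and 12.2, 11.8, 11.5, 12.0 and 11.5 in sham, log2 fold change -0.13 ± 0.045, adjusted p = 0.041. The groups did not overlap, but the gap was narrow, 11.4 against 11.5 FPKM, and the call was lost when any 1 of 8 lungs was left out (adjusted p up to 0.0977). It was also lost with an equal total per lung (log2 fold change -0.05) and with log2 Xist as a covariate, where the fold change itself was larger at -0.17.

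Among the fatty acid enzymes members changed in both directions. Of 10 tested, 2 (Fads1 and Me1) were upregulated, 3 (Fasn, Elovl5 and Scd2) were downregulated and 5 did not pass, beside 16.1% upregulated and 16.2% downregulated among all genes, and the median log2 fold change was -0.18. Of the 10 fold changes 3 were positive (Fads1, Fads2 and Me1) and 7 negative, but that of Acly turned positive with an equal total of fragments per lung, and those of Acly, Acaca and Scd1 turned positive with the AT2 mean as a covariate.

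**Figure D2:**
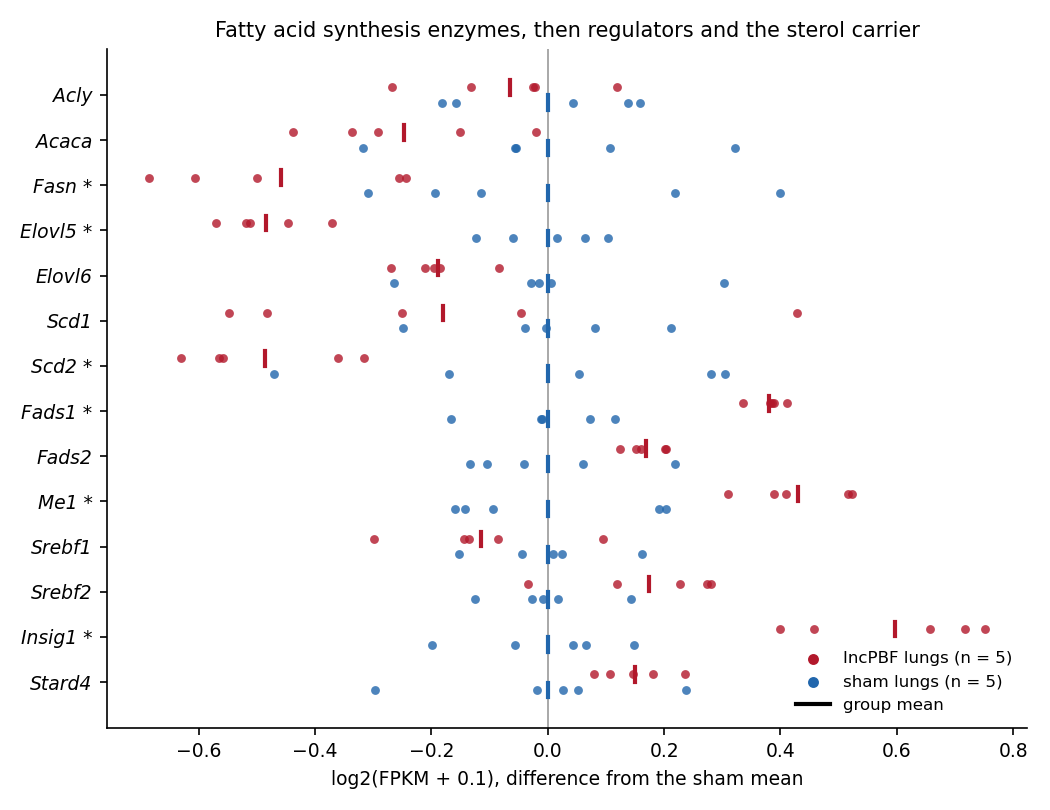
Points and axes as for the sterol enzymes: each row is a gene, each point a lung, and the horizontal axis is log2(FPKM + 0.1) minus the sham mean. Elovl5 lies wholly left of the sham lungs with a log2 fold change of -0.48, Fads1, Me1 and Insig1 lie wholly right, and sham lung 3 is the lowest sham lung for 7 of the 10 fatty acid enzymes.

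Acly, which splits citrate into cytosolic acetyl-CoA for both routes, was at 29.9 to 39.2 FPKM in IncPBF and 31.8 to 40.3 in sham, log2 fold change -0.07 ± 0.089, adjusted p = 0.61. Acaca, the carboxylase that commits acetyl-CoA to fatty acids, was at 2.58 to 3.48 and 2.81 to 4.43, log2 fold change -0.25 ± 0.12, adjusted p = 0.138. Neither passed, and 52.6% of the 50-base stretches of Acaca occur in the gene Gm5182. Fasn (chr11:120805846-120824547), the fatty acid synthase, was at 25.4, 23.6, 30.1, 22.3 and 30.4 FPKM in IncPBF and 47.5, 33.2, 29.0, 31.4 and 41.9 in sham, log2 fold change -0.46 ± 0.14, adjusted p = 0.0282. Sham lungs 1 and 5 were the highest, and IncPBF lungs 3 and 5 overlapped the lowest sham lung. The Fasn call was lost without any 1 of IncPBF lungs 1, 2 and 4 or sham lungs 1 and 5 (adjusted p up to 0.0696).

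Elovl5 (chr9:77917364-77984519), which elongates polyunsaturated chains, was the downregulated member with complete separation and the firmest call. It was at 70.8, 65.0, 67.7, 67.4 and 74.6 FPKM in IncPBF lungs and 104, 97.7, 88.6, 92.7 and 101 in sham lungs, log2 fold change -0.48 ± 0.059, adjusted p = 1.69e-04, and stayed past the threshold in every setting, the Xist covariate included. Elovl6, which elongates saturated chains, was far less abundant at 1.81 to 2.07 FPKM in IncPBF and 1.82 to 2.74 in sham, log2 fold change -0.19 ± 0.10, adjusted p = 0.186, and did not pass.

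The stearoyl-CoA desaturases Scd1 and Scd2 put the first double bond into saturated chains, lie in the same cluster on chromosome 19 and were the most abundant members per length. Scd2 (chr19:44293676-44306864) was at 168, 146, 146, 139 and 173 FPKM in IncPBF and 262, 224, 156, 191 and 266 in sham, log2 fold change -0.49 ± 0.14, adjusted p = 0.0218. The sham lungs were widely spread, and the lowest, lung 3, lay within the IncPBF range. The Scd2 call was lost without IncPBF lung 4 or sham lung 1 (adjusted p up to 0.0545). Scd1 was at 216, 109.9, 135, 115 and 156 FPKM in IncPBF and 186, 160.2, 135, 156 and 169.9 in sham, log2 fold change -0.18 ± 0.17, adjusted p = 0.443, where IncPBF lung 1 was the highest of all 10 lungs and IncPBF lungs 2 and 4 the lowest, and it did not pass.

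Fads1 and Fads2, the desaturases that act on polyunsaturated chains in turn with Elovl5, are neighbours on chromosome 19 and are read from opposite strands. Fads1 (chr19:10182888-10196870) was at 40.6, 39.1, 40.5, 41.2 and 40.4 FPKM in IncPBF and 27.6, 33.6, 30.8, 32.6 and 30.7 in sham, log2 fold change 0.38 ± 0.055, adjusted p = 5.09e-04. The 5 IncPBF lungs were tightly grouped, with an SD of 0.766 FPKM. Fads2 was at 25.6, 27.1, 26.3, 26.1 and 27.0 FPKM in IncPBF and 22.8, 27.3, 21.8, 21.4 and 24.5 in sham, log2 fold change 0.17 ± 0.066, adjusted p = 0.0717, and did not pass. Sham lung 2 was the highest of all 10 lungs, and without it Fads2 passed as upregulated.

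Me1 (chr9:86581371-86695953), the malic enzyme that supplies NADPH for lipid synthesis, was at 21.9, 21.6, 23.7, 20.4 and 23.6 FPKM in IncPBF and 15.4, 14.9, 19.0, 18.8 and 14.7 in sham, log2 fold change 0.43 ± 0.085, adjusted p = 0.00306. All IncPBF lungs were above all sham lungs, although sham lungs 3 and 4 stood nearer to them than the other 3. Me1 shares 32.8% of its 50-base stretches with other genes.

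Among the regulators and the carrier, Insig1 was upregulated and the other 3 did not pass. Insig1 (chr5:28071363-28078662), the retention protein that is itself a target of SREBP, was at 15.4, 19.3, 18.5, 19.7 and 16.1 FPKM in IncPBF and 11.2, 12.9, 12.2, 12.0 and 10.2 in sham, log2 fold change 0.60 ± 0.086, adjusted p = 5.22e-04. Its groups were clearly apart. The factor genes differed less: Srebf2, whose promoter is printed above, ranged from 18.9 to 23.4 FPKM in IncPBF and 17.7 to 21.3 in sham, log2 fold change 0.17 ± 0.071, adjusted p = 0.0859, and Srebf1 from 14.5 to 19.1 and 16.1 to 20.1, log2 fold change -0.11 ± 0.078, adjusted p = 0.289. Stard4, which carries cholesterol between membranes, ranged from 18.6 to 20.8 and 14.3 to 20.8, log2 fold change 0.15 ± 0.085, adjusted p = 0.201. The activity of SREBP proteins is set by cleavage, which was not measured here. With an equal total of fragments per lung, Srebf2 and Stard4 passed as upregulated, as did Mvk, Lss and Fads2.

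**Figure D3:**
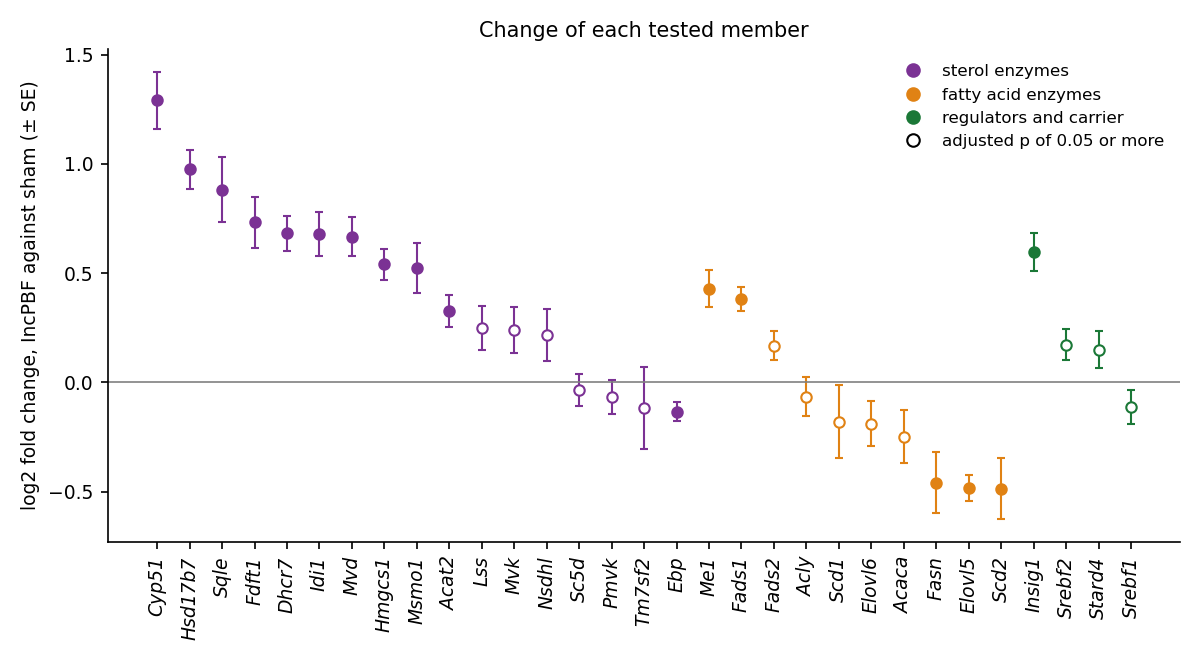
Log2 fold change of each of the 31 tested members, IncPBF against sham, with its standard error. Colours give the list, and open circles mark an adjusted limma p of 0.05 or more. The sterol enzymes run from 1.29 (Cyp51) to -0.13 (Ebp), and the fatty acid enzymes from 0.43 (Me1) to -0.49 (Scd2).

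Sterol and fatty acid enzymes were set side by side in each lung as the mean difference from the sham mean on the log2 scale, over 17 and 10 genes. The sterol mean was 0.33, 0.41, 0.50, 0.63 and 0.39 in IncPBF lungs 1 to 5 and -0.05, -0.04, 0.09, 0.07 and -0.08 in sham lungs 1 to 5, with no overlap. The fatty acid mean was -0.04, -0.19, -0.11, -0.23 and 0.01 in IncPBF and 0.11, 0.01, -0.18, -0.06 and 0.11 in sham, where the groups overlapped. The difference of the 2 means was 0.37, 0.60, 0.61, 0.86 and 0.38 in IncPBF and -0.16, -0.06, 0.28, 0.13 and -0.19 in sham. Every IncPBF lung was thus above every sham lung in this difference, which is given as a description because the members were chosen with results known. IncPBF lung 4 had the highest sterol and the lowest fatty acid mean, being the highest of its group in 12 of 17 sterol enzymes and the lowest in 5 of 10 fatty acid enzymes. Sham lung 3 had the same place in the sham group, the highest in 8 and the lowest in 7. IncPBF lung 1, the IncPBF lung with low Xist, had the lowest sterol mean and the smallest difference of the IncPBF lungs.

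**Figure D4:**
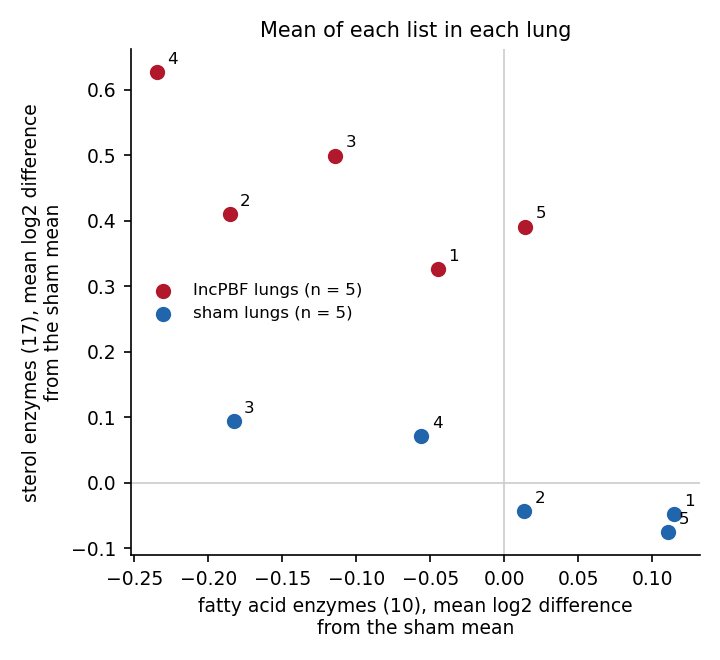
Each point is a lung, numbered within its group (red IncPBF, blue sham). The horizontal axis is the mean log2 difference of 10 fatty acid enzymes from their sham mean and the vertical axis the same for 17 sterol enzymes. The IncPBF lungs are at 0.33 to 0.63 on the sterol axis and the sham lungs at -0.08 to 0.09, and the groups overlap on the fatty acid axis.

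Other genes of the 2 pathways did not follow the members as a whole. Of 56 listed genes outside the set 51 were tested, 6 were upregulated, 16 were downregulated and 29 did not pass, against 16.1% upregulated and 16.2% downregulated among all genes. Among 23 tested genes of sterol uptake, control and export, 4 were upregulated, 9 were downregulated and 10 did not pass. Without IncPBF lungs 2 and 4, 6 of the 51 were downregulated, and with log2 Xist as a covariate 1 was upregulated and 3 were downregulated. The 9 downregulated genes of the sterol list included both LXR genes and genes known as LXR targets.

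Aacs, which activates acetoacetate for lipid synthesis, was at 6.28, 6.30, 6.56, 7.50 and 5.89 FPKM in IncPBF and 4.13, 4.97, 4.73, 4.24 and 4.798 in sham, log2 fold change 0.50 ± 0.078, adjusted p = 8.35e-04. All IncPBF lungs were above all sham lungs. Among fatty acid and lipid genes the citrate carrier Slc25a1 (log2 fold change 0.30 ± 0.080, adjusted p = 0.0164) and Dgat1 of triglyceride synthesis (log2 fold change 0.32 ± 0.097, adjusted p = 0.0279) were upregulated. The Dgat1 groups overlapped, and its call was lost without any 1 of 6 lungs (adjusted p up to 0.0672). The calls of Aacs, Slc25a1 and Dgat1 were each lost with either log2 Xist or the AT2 mean as a covariate.

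Abca1 (chr4:53030787-53159895), the pump that exports cholesterol to lipoprotein, fell most among the listed pathway genes on the log2(FPKM + 0.1) scale, with Lpin1 close to it. It was at 13.3, 10.4, 9.73, 7.50 and 12.2 FPKM in IncPBF and 35.2, 24.998, 19.0, 23.4 and 35.4 in sham, log2 fold change -1.35 ± 0.19, adjusted p = 4.65e-04. Sham lungs 1 and 5 were the highest, as for Fasn, and the lowest sham lung was still above all IncPBF lungs. Lpin1, a phosphatase of glycerolipid synthesis, was at 2.27, 2.37, 2.33, 2.20 and 2.44 FPKM in IncPBF and 7.40, 6.29, 4.88, 4.22 and 8.49 in sham, log2 fold change -1.35 ± 0.16, adjusted p = 1.68e-04. Its IncPBF lungs were nearly alike while the sham lungs differed among themselves. The Abca1 call was lost with either log2 Xist or the AT2 mean as a covariate, and the Lpin1 call was kept in every setting.

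Mylip, a ubiquitin ligase of lipoprotein uptake, was at 8.12 to 12.2 FPKM in IncPBF and 15.8 to 26.5 in sham, log2 fold change -1.09 ± 0.15, adjusted p = 3.10e-04. Apoe, a lipoprotein component secreted by macrophages and other cells, was at 127 to 145 and 207 to 313, log2 fold change -1.01 ± 0.11, adjusted p = 7.13e-05. The groups did not overlap for either gene. The Mylip call was lost with either log2 Xist or the AT2 mean as a covariate, and the Apoe call was kept in every setting. Abcg1 (log2 fold change -0.49 ± 0.15, adjusted p = 0.0309), Nr1h3 (log2 fold change -0.40 ± 0.089, adjusted p = 0.00559) and Nr1h2 (log2 fold change -0.22 ± 0.060, adjusted p = 0.0163), the LXR genes and a further exporter, are named here after their values were seen, and the Abcg1 call was lost without any 1 of 6 lungs (adjusted p up to 0.0751). Without IncPBF lungs 2 and 4 the calls of Nr1h2 and Nr1h3 were lost too (adjusted p = 0.113 and 0.054), as was that of Nr1h2 with an equal total per lung (adjusted p = 0.0914). The SREBP partners Scap (log2 fold change -0.24 ± 0.079, adjusted p = 0.0396) and Insig2 (log2 fold change -0.23 ± 0.078, adjusted p = 0.0456) also passed as downregulated with overlapping groups. Both calls were lost without any 1 of 7 or 8 lungs (adjusted p up to 0.0891 and 0.105) and with an equal total per lung. The calls of Abcg1, Nr1h2, Nr1h3, Scap and Insig2 were each lost with either log2 Xist or the AT2 mean as a covariate.

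**Figure D5:**
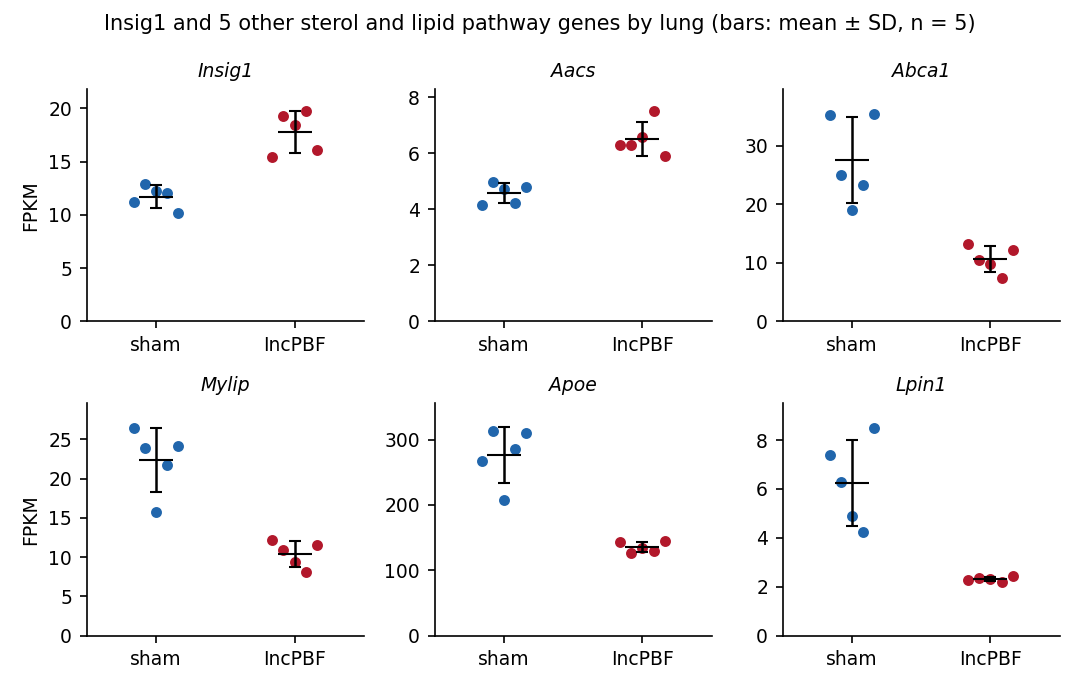
FPKM by lung (points) with mean ± SD (bars, n = 5 per group) for Insig1 and 5 other sterol and lipid pathway genes, with each axis starting at 0. Insig1 and Aacs are higher in all IncPBF lungs than in any sham lung, and Abca1, Mylip, Apoe and Lpin1 are lower.

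Markers of lung cell types moved with the groups beside these results. Among all genes tested 16.1% were upregulated and 16.2% downregulated, and the counts of the shorter marker lists are to be read beside these shares. Of 12 AT2 markers 6 were downregulated and none upregulated, with a summed level of 11830 to 14570 FPKM in IncPBF and 14460 to 17890 in sham. Most of this sum was Sftpc, which was at 9583 to 11925 FPKM in IncPBF and 10934 to 14074 in sham and did not pass. Sftpb, another surfactant protein gene, was at 704 to 870.5 and 1188 to 1302, log2 fold change -0.64 ± 0.084, adjusted p = 2.84e-04. In whole lungs fewer cells of a type and less RNA per cell cannot be told apart. With the mean of the AT2 markers as a covariate 849 genes were called in place of 4970. Of the 13 upregulated members 6 still passed (Hmgcs1, Cyp51, Hsd17b7, Dhcr7, Fads1 and Me1), and of the downregulated members Elovl5 did. All 13 kept a positive fold change, but they were selected on these same lungs, so the kept sign is no separate support. Of 8 myofibroblast and smooth muscle markers 5 were upregulated, Acta2 and Tgfbi among them (log2 fold changes 1.57 and 1.97). The 1 downregulated marker was Pdgfra, at 18.8 to 26.3 FPKM in IncPBF and 44.3 to 73.7 in sham. Its log2 fold change was -1.36 (limma adjusted p = 9.01e-05). The part of these markers in the member results was not tested. Of 8 lipofibroblast markers 1 rose (Gyg, log2 fold change 0.75) and 3 fell, Npnt among them (log2 fold change -0.50), and of 8 endothelial markers 1 rose and 4 fell. Of 10 genes listed as macrophage markers none rose and 3 fell, Car4 among them (log2 fold change -0.45). Whether the Car4 RNA came from macrophages was not tested. None of the 8 airway and the 4 tested heart muscle markers passed. Adipocyte markers were near 0, with 1 of 10 tested (Cidec, downregulated), Lep at 0 in all lungs, Adipoq at 0.244 FPKM or less, and a summed level over the list of 10 of at most 3.79 in IncPBF and 4.31 in sham.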

How the data were processed

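Lungs of 5 IncPBF and 5 sham pups, operated on at P7, were collected at P14. RNA was isolated with Trizol per the labels and with a column kit per the methods. Hemostatic compression also differs between these sources. NEBNext libraries were sequenced on a NovaSeq. The authors deposited FPKM with the gene length. The submitters' processing notes list Bowtie 0.12.2 and the builds hg38, GRCm38 and mm10, with no role or order, and the counting software is not given in the sources used here. Positions matched GENCODE M21 on GRCm38 for 98.3% of shared genes and 27 of the 32 members, and coordinates printed for genes are those of the table. The IncPBF columns are abbreviated differently from the titles of the samples, so each was tied to the group and not to a single sample. FPKM times length gave whole fragments for at least 99.8% of values (tolerance 0.01).

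The members and lists were chosen with earlier results of these data known. Tests used limma 3.58.1 (lmFit, eBayes with a trend) in R 4.3.3 on log2(FPKM + 0.1) for 15388 genes with mean FPKM of at least 0.5, without covariates, at a Benjamini-Hochberg adjusted p of 0.05. On simulated data for this comparison (15065 genes, 200 changed) 97% of 2-fold and 42% of 1.5-fold changes were recovered, with 2 false calls. The simulated lungs had the same relative scatter for every gene and no sex or cell type difference between groups. Its false calls therefore give no error rate for the real groups. Alternatives were the pseudocount, filter, scaling, replicate block, trend, limma-voom on recovered fragments, exact permutation, log2 Xist or the AT2 mean as a covariate, and leaving out lungs. Leaving out IncPBF lungs 2 and 4 together, or members sharing at least 10% of 50-base stretches with other transcripts, was added after the data were seen. All members are named. Those past the threshold are given by lung, and of other pathway genes the 4 largest changes in each direction, with Scap and Insig2. Some genes under this rule are not reported here. Of each marker list the 2 most abundant genes were eligible. Slc25a1, Dgat1, Abcg1, Nr1h2, Nr1h3, Myl7, Pdgfra, Cidec, Lep and Adipoq lie outside this rule. Promoters came from RefSeq (GRCm38.p6). Python 3.11.15, pandas 2.3.3 and matplotlib 3.10.9 were used.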

Additional observations from a re-analysis of the deposited data

Results flagged for a closer look

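Among 64 groups of 5 lungs (32 members in 2 groups), 2 held a lung far from the others by Dixon's ratio of gap to range, whose critical value is 0.71. Pmvk was at 8.88 FPKM in IncPBF lung 1 and at 10.1 to 10.6 in the other 4 IncPBF lungs. Msmo1 was at 5.90 FPKM in IncPBF lung 4 and at 4.11 to 4.48 in the others. Chance flags about 1 in 20 groups, so 2 flags in 64 groups are no more than chance gives. Msmo1 stayed upregulated without IncPBF lung 4.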

How the results depend on the processing

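All 13 upregulated members kept their call under every alternative except the Xist and AT2 covariates, and with any 1 lung left out (highest adjusted p 0.0174, for Acat2). With log2 Xist as a covariate 741 genes were called in place of 4970, with 4 members upregulated and 1 downregulated and 1 and 3 other pathway genes upregulated and downregulated (6 and 16 without it). With the AT2 mean as a covariate these were 849 genes, 6 and 1 members, and 2 and 3 other pathway genes, and the median of the fatty acid enzymes turned to 0.0591. Without IncPBF lungs 2 and 4 the counts were 2799 genes, 1 downregulated member and 6 downregulated pathway genes. Members called downregulated numbered 1 with no filter on low values, 2 with exact permutation (smallest p 0.00794), and 1 to 5 with 1 lung left out. Downregulated pathway genes numbered 10 with exact permutation and 10 with an equal total per lung. With the members that share sequence removed, 8 were upregulated and the sterol median was 0.25, since 5 of the members removed had been upregulated, Me1 and 4 sterol enzymes. The cause of the other changes was not tested.

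Fold changes of members that did not pass reversed as follows. An equal total gave Pmvk 0.0113, Sc5d 0.0442 and Acly 0.014, and limma-voom gave Pmvk 0.0097, Sc5d 0.044 and Acly 0.0143. The Xist covariate gave Nsdhl -0.0406, Scd1 0.436 and Srebf2 -0.0216. The AT2 covariate gave Acly 0.0992, Acaca 0.019 and Scd1 0.125, and leaving out IncPBF lungs 2 and 4 gave Scd1 0.0439. With 1 lung left out Sc5d ran from -0.0743 to 0.0172. Limma-voom called 3653 genes upregulated and 1863 downregulated. Lungs with the same number did not deviate together (correlations -0.067 to 0.085, the best partner for numbers 2 and 5), so the replicate block is given here alone: 4872 genes were called, with 14 members upregulated and 3 downregulated. Fdps, with 12 to 33 fragments per lung, was under the filter.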

Other observations

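Some lipid genes outside the synthesis routes were lower in the IncPBF group. These genes were chosen after their values were seen. Gpam and Cyp27a1 are among the 16 downregulated pathway genes counted above, and Lpl is among the 3 downregulated lipofibroblast markers. Fits with the Xist or AT2 covariate or with lungs left out are not given here for Lpl, Gpam and Cyp27a1. Lpl, the lipase that frees fatty acids from circulating lipoproteins, was at 9.64 to 12.9 FPKM in IncPBF and 18.4 to 23.5 in sham, a log2 fold change of -0.88 in limma across all genes (adjusted p = 8.67e-05), without overlap. Gpam, which starts glycerolipid assembly, had a log2 fold change of -0.67 in limma across all genes (adjusted p = 0.00513), without overlap. Plin2, the coat protein of lipid droplets and a lipofibroblast marker, was at 26.0 to 31.5 FPKM in IncPBF and 28.7 to 33.7 in sham and did not pass. Cyp27a1, which makes an oxidised sterol that can switch on LXR, had a log2 fold change of -0.73 in limma across all genes (adjusted p = 3.32e-05), also without overlap.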
